A study of Homo sapiens with 6 samples.

Results

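The 33 genes described here were chosen as transcriptional targets of the tumour suppressor p53 and read on arrays of HCC-LM3 cells, a human hepatocarcinoma line. They were taken by name from the array's annotation, where ZMAT3 is listed as WIG1, AEN as ISG20L1 and TP53AIP1 as P53AIP1. All 33 were found, of 23593 named genes in all, and they have 87 array features between them. The feature with the highest mean log2 level over the 6 arrays stood for each gene, and the other features are reported beside it. The knockdown cells, shASPP2, carried a lentivirus with an shRNA against ASPP2, the protein made from the gene TP53BP2. The control cells, shNon, carried a lentivirus with a control shRNA, so both groups are infected cells. Both were grown in the same serum-containing medium, and RNA was taken 1 week after infection. Each group has 3 samples, which the labels describe as separate cultures, each read on a 1-colour NimbleGen array. The model is a single tumour line. The labels name no agent that damages DNA, and they give neither the p53 status of the line nor the number of shRNA sequences used.

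p53 binds DNA as a tetramer and is kept scarce in unstressed cells by the ubiquitin ligase MDM2, which is itself a p53 target, together with the related protein MDM4. After DNA damage and other stress, p53 raises genes that stop the cell cycle, genes that promote apoptosis, genes of DNA repair and genes that switch p53 off again. ASPP2 binds p53 and is known to favour its action on apoptosis genes such as BAX over arrest genes such as CDKN1A.

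p53 recognises a pair of short motifs, each known as the p53 consensus decamer, which reads the same by the consensus on both strands. The decamer was searched in the RefSeq promoter windows of GRCh38.p14, which run from 250 bases before to 50 bases after a gene's start. The table holds 39 windows for 26 of the 33 genes. No window was used for TNFRSF10A, TNFRSF10B, TNFRSF10C, GADD45A, TP53INP1, RRM2B or PHLDA3. The decamer was in 7 of the 26 genes (26.9%), against 8.06% of the 27305 genes in the table. The matches to this consensus are shown as 30 bases each, 5′ to 3′ on the gene's strand, with the decamer in capitals.
PLK2 (chr5:58460199-58460228, minus strand): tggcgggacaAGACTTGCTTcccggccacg
SESN1 (chr6:109009018-109009047, minus strand): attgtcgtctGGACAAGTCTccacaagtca
FAS (chr10:88991299-88991328, plus strand): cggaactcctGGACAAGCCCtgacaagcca
AEN (chr15:88621296-88621325, plus strand): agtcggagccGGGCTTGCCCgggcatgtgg
RPS27L (chr15:63157517-63157546, minus strand): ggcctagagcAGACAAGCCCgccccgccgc
DDB2 (chr11:47214975-47215004, plus strand): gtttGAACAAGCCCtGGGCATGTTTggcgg
FDXR (chr17:74872986-74873015, minus strand): gggcaggagcGGGCTTGCCCtgcggagcag
AEN and FDXR carried the same decamer letters. DDB2 alone among the 26 genes held 2 decamers at most 13 bases apart, as 10 genes of the whole table did. Its second decamer was also the only one among the 26 genes with CATG at its centre, which 1.95% of all genes in the table had. SESN1, FAS, DDB2 and FDXR have several windows, and the match was in a single window of each. A match is a description of letters, not a bound site, and windows without one say nothing of sites elsewhere.

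On the arrays, the median feature intensity was 119 to 122 in shASPP2 and 111 to 121 in shNon. Probes of random sequence, which stand for background, had a level of 30.4 to 30.8 in shASPP2 and 31.8 to 33.3 in shNon. A gene is called measurable here if it was over 2 times that level on every array of at least 1 group. By that rule 30 of the 33 p53 targets were measurable, against 57.0% of all genes. Across features the arrays correlated at r = 0.983 to 0.985 within shASPP2 and 0.958 to 0.972 within shNon, so the control arrays were the more spread. Of 10 hepatocyte markers, 4 were measurable (HNF4A, TF, FGB and, only just, ALB), while AFP, APOA1, APOB, TTR, SERPINA1 and AHSG were not. The keratins KRT8 and KRT18 and CDH1 were measurable and EPCAM was not. Of the markers of other cells, 0 of 5 leukocyte and blood genes, 1 of 4 endothelial genes (PECAM1) and 3 of 5 fibroblast and stellate genes (COL1A1, COL3A1 and DCN) were measurable. Several of the measurable markers differed between the groups without overlap, in both directions. FGB passed in limma (log2 fold change, shASPP2 minus shNon, -1.73, adjusted p = 0.0361), CDH1 had -1.62 (adjusted p = 0.0518), PECAM1 -0.96, TF -0.39, ALB -0.34, KRT8 0.71, HNF4A 0.56 and KRT18 0.25. Their part in the results was not tested.

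TP53BP2, the target of the shRNA, had intensities of 228, 216 and 147 in shASPP2, against 332, 488 and 452 in shNon. Its geometric mean in shASPP2 was 46.2% of that in shNon, and the groups did not overlap. The log2 fold change, shASPP2 minus shNon, was -1.11 (SE 0.249, limma adjusted p = 0.204), and on the other feature it was -1.41. In bulk RNA, fewer cells that express a gene and less RNA per cell cannot be told apart, here or for any gene that follows.

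The p53 targets had no common direction. Their median log2 fold change was 0.03, against 0.01 over all genes, with 18 above 0 and 15 below. None of the 33 passed an adjusted p of 0.05 in limma, where 0.102% of all genes did (0.0424% higher and 0.0593% lower in shASPP2). At an unadjusted p under 0.05 there were 6 members, 18.2%, beside 11.5% of all genes. CDKN1A, SFN, PLK3 and APAF1 were the 4 with higher values in shASPP2, beside 5.54% of all genes, and MDM4 and PHLDA3 were the 2 with lower values, beside 5.93%. The members are measurable more often than all genes. Of the 13877 genes with a mean level over 2 times the random-probe level, 2311 were under an unadjusted p of 0.05 in limma.

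The arrays of the groups did not overlap for 9 members (27.3%), beside 18.8% of all genes. CDKN1A, SFN, PLK2 and APAF1 were higher on every shASPP2 array, where 9.30% of all genes were. On the feature used, MDM2, MDM4, PPM1D, PHLDA3 and XPC were lower on every shASPP2 array, where 9.52% of all genes were. The other features of MDM2, PPM1D and PHLDA3 overlapped between the groups. A difference of at least 1.5-fold was measured in 6 members, beside 14.0% of all genes, and of at least 2-fold in 2 members, beside 2.68%. With 3 arrays per group, the two-sided exact permutation test of a single gene cannot give a p under 0.1, which is its value for each of these 9 genes. The precision also limits what was not seen: the 95% interval stayed inside 2-fold for 23 members, and inside 1.5-fold for 8. The 23 include FAS, EDA2R and TP53AIP1, which were not measurable, and the 8 include TP53AIP1. For values near background, such an interval does not bound a change in RNA.

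**Figure D1:**
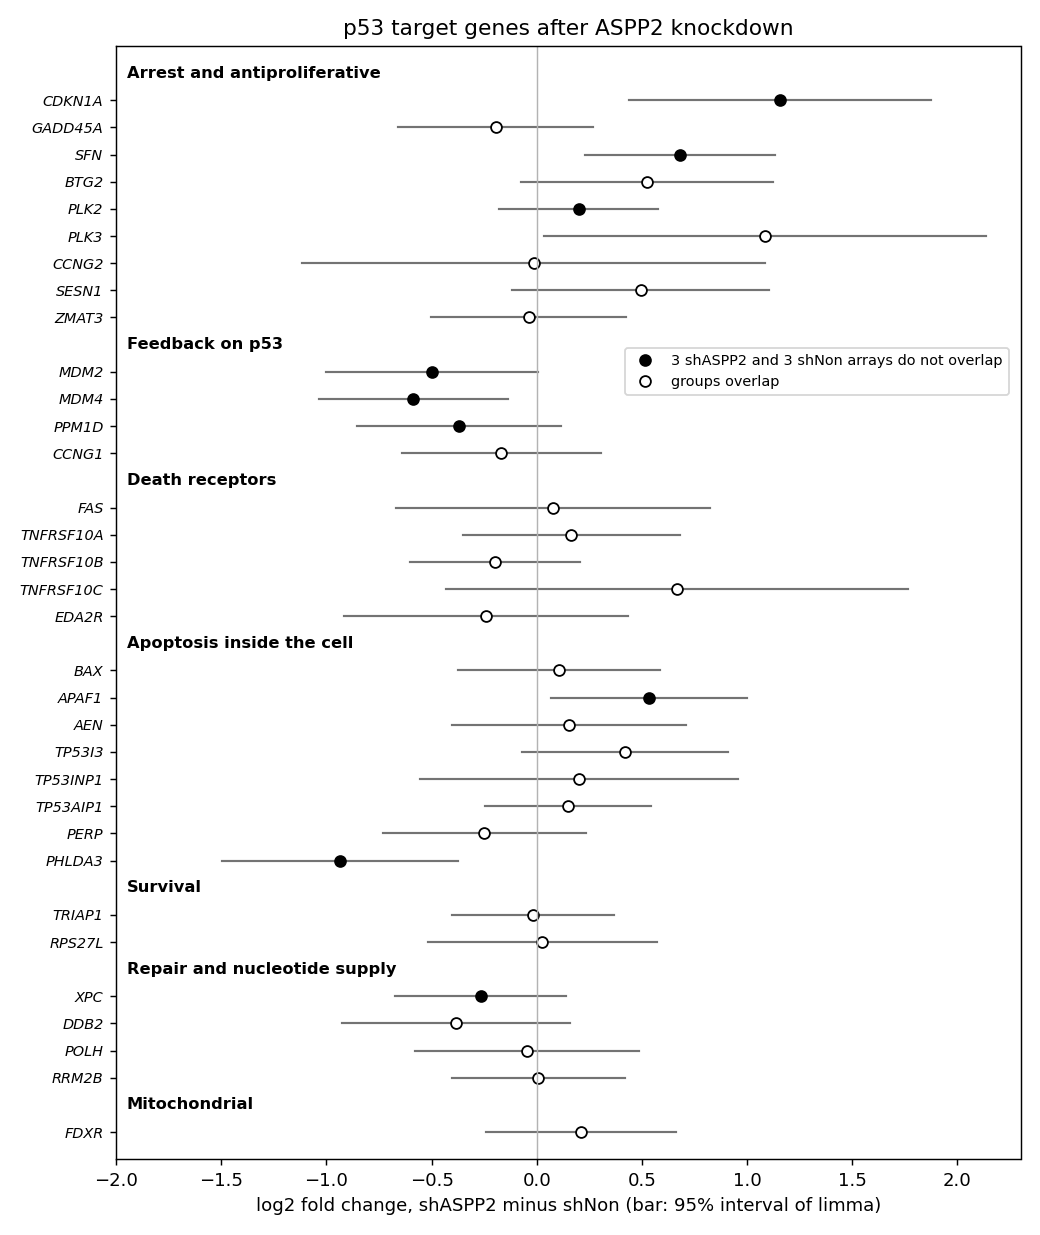
Log2 fold change, shASPP2 minus shNon, of the 33 p53 target genes by role, with limma's 95% interval as a bar. Filled points mark the 9 genes whose 3 shASPP2 and 3 shNon arrays do not overlap. CDKN1A lies farthest right at 1.16 and PHLDA3 farthest left at -0.94.

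By role, the median log2 fold change was 0.49 for the 9 arrest and antiproliferative genes and -0.43 for the 4 genes that feed back on p53. It was 0.08 for the 5 death receptors, a group that includes the decoy TNFRSF10C. It was 0.15 for the 8 genes of apoptosis inside the cell and -0.16 for the 4 genes of repair and nucleotide supply. The 0.08 is the value of FAS, which was near background, and 3 of these 5 receptors were measurable. The 0.49 is the value of SESN1, whose groups overlapped and for which the mean of both features gave 0.15. The medians thus depend on the feature used for each gene. The difference between roles was not tested.

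Of the arrest genes, CDKN1A had the largest log2 fold change. It encodes p21, the inhibitor of cyclin-dependent kinases through which p53 halts the cell cycle. CDKN1A (chr6:36754464-36763087, hg18) had intensities of 1154, 1375 and 1066 in shASPP2, against 793, 540 and 356 in shNon. The means were 1198 ± 159 in shASPP2 and 563 ± 219 in shNon (SD, n = 3 each), and the groups did not overlap. The log2 fold change was 1.16 (SE 0.304, 95% interval 0.44 to 1.88), with a limma adjusted p of 0.254. Its second feature gave 1148, 1283 and 1321 in shASPP2 and 665, 437 and 454 in shNon, again without overlap, and a log2 fold change of 1.29. The third shNon array was the lowest of the first feature, and without it the value was 0.86.

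SFN encodes stratifin, an epithelial protein that holds mitotic kinases in the cytoplasm and so delays entry into mitosis. SFN (chr1:27062219-27063534, hg18) had 12586, 14675 and 11212 in shASPP2, against 6928, 8867 and 8208 in shNon. Every shASPP2 array was above every shNon array on each of its 4 features, whose log2 fold changes were 0.68 to 0.83. The feature used had 0.68 (SE 0.192, 95% interval 0.23 to 1.13, limma adjusted p = 0.282). Features of a gene were read on the same arrays and are not further replicates.

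CDKN1A and SFN were the members that passed when the variance was modelled with a trend on the level and robustly (limma adjusted p = 0.0190 and 0.00489). That fit passed 2.14% of all genes, 0.996% higher and 1.15% lower in shASPP2. The stretches before the starts of CDKN1A and SFN are shown because these genes passed that fit, with the GC box that Sp1 family factors bind, GGGCGG or CCGCCC on the other strand, in capitals.
CDKN1A (chr6:36678464-36678713, plus strand): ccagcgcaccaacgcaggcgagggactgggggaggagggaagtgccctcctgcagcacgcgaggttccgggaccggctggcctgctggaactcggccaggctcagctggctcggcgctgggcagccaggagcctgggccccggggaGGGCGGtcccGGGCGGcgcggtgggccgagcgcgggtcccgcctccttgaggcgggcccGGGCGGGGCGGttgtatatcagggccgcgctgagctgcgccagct
SFN (chr1:26862899-26863148, plus strand): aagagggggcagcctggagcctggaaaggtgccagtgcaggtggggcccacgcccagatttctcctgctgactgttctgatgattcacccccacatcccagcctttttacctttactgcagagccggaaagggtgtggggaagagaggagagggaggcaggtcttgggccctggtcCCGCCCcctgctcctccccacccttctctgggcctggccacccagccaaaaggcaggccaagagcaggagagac
The 250 bases of CDKN1A held 4 GC boxes, with the last pair overlapping, and those of SFN held 1. In the 250 bases before the start, a GC box was in 31 of the 39 windows of the p53 targets (79.5%), against 42.6% of all windows. Windows of a gene can overlap, as those of MDM2 do, and each was counted. No decamer was in the window of CDKN1A or of SFN.

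**Figure D2:**
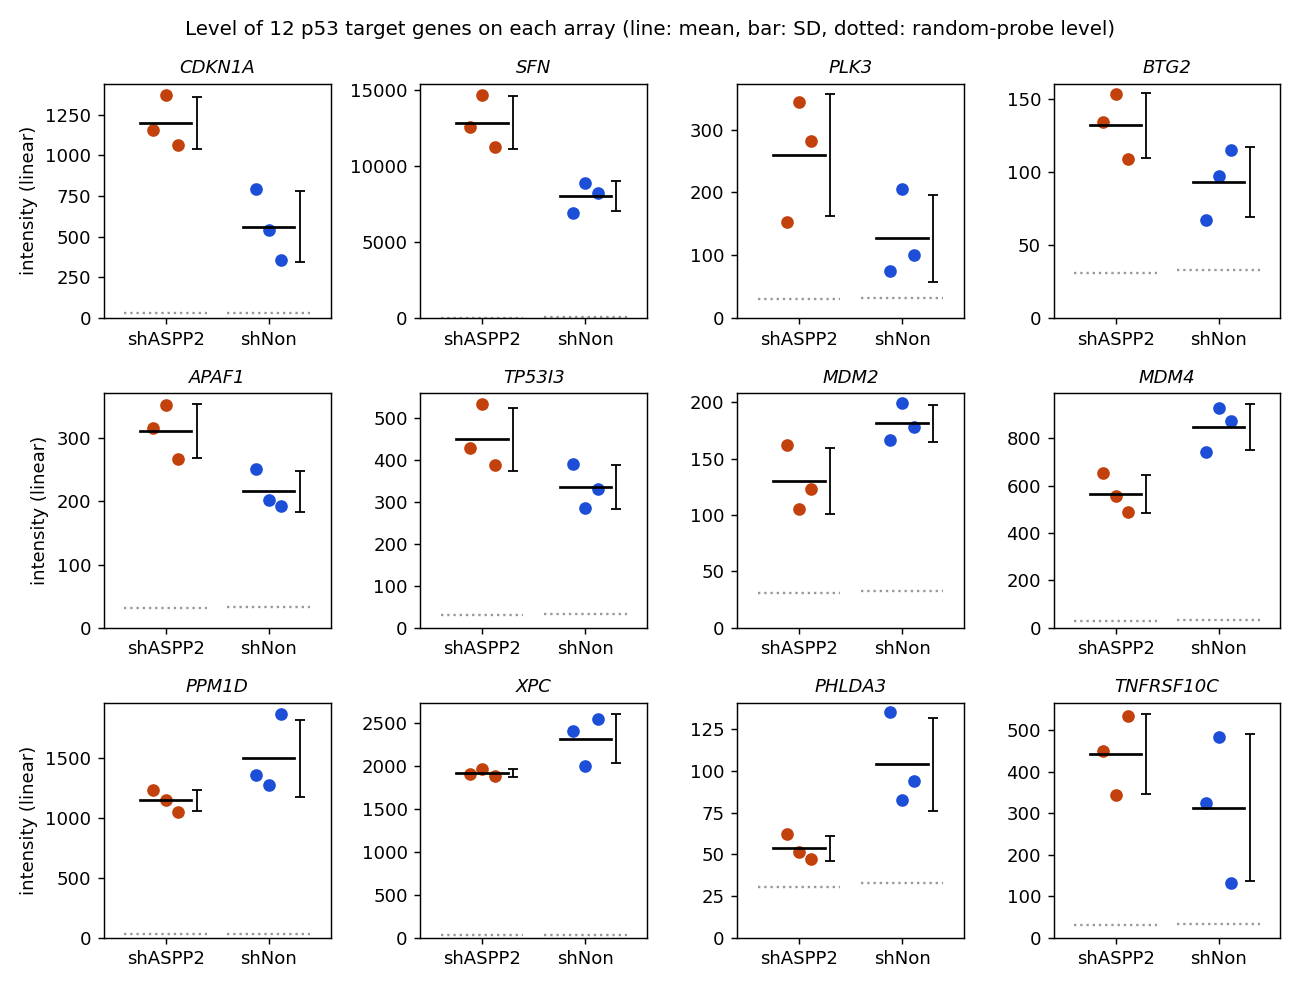
Intensity of 12 p53 target genes on each array, with the mean as a line, the SD as a bar and the level of the random probes dotted. Each panel has its own axis from 0. The 3 shASPP2 points of CDKN1A, SFN and APAF1 all lie above the 3 shNon points, and those of MDM2, MDM4, PPM1D, XPC and PHLDA3 all lie under them.

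PLK3 and PLK2 encode stress-responsive polo-like kinases. PLK3 had 152, 343 and 282 in shASPP2, against 75.1, 205 and 100.004 in shNon, so the highest shNon array lay above the lowest shASPP2 array. Its log2 fold change of 1.09 had a wide interval (SE 0.446, 95% interval 0.04 to 2.14, limma adjusted p = 0.421), and it has a single feature. PLK2, which has a decamer before its start, had 3846, 3374 and 3436 in shASPP2 and 3199, 2973 and 3101 in shNon. These groups did not overlap on either feature, but the log2 fold changes were small, at 0.20 (limma adjusted p = 0.668) and 0.31.

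BTG2, an antiproliferative cofactor of mRNA decay, had 134, 153 and 109 in shASPP2, against 67.3, 96.9 and 115 in shNon, and 1 shNon array lay within the shASPP2 range (log2 fold change 0.52, SE 0.254). Its other feature had 0.82, and without the first shNon array the feature used had 0.31. SESN1, a sestrin that restrains mTORC1, averaged 480 ± 89.5 in shASPP2 and 346 ± 100 in shNon (SD, n = 3 each), with overlap and a log2 fold change of 0.49. Its other feature, which is dim, had -0.20, the mean of both features gave 0.15, and without the second shNon array the feature used had 0.30. The remaining arrest genes lay nearer to 0. GADD45A, a stress sensor that binds p21 and PCNA, had -0.20 on the feature used and -0.25 and 0.38 on the others. ZMAT3, an RNA-binding zinc finger protein, had -0.04 and 0.02. CCNG2, an atypical cyclin of arrested cells, had -0.01 and -0.37, with an interval from -1.11 to 1.09 on the feature used.

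All 4 genes that feed back on p53 had log2 fold changes under 0 on the feature used. On that feature, 3 of them did not overlap between the groups, where 18.8% of all genes did not overlap in either direction and 9.52% were lower. MDM4, the MDM2 relative that masks p53's activation domain, had 651, 555 and 490 in shASPP2, against 743, 929 and 870 in shNon. The log2 fold change was -0.59 (SE 0.191, 95% interval -1.04 to -0.14, limma adjusted p = 0.337). Its 5 measurable features all lay under 0, from -0.59 to -0.12, and its dim sixth feature had 0.09.

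MDM2, the ubiquitin ligase that sends p53 to the proteasome, had 162, 105 and 123 in shASPP2, against 167, 200 and 178 in shNon. The groups came within a few units of each other at their edges, and the log2 fold change was -0.50 (SE 0.213, 95% interval -1.001 to 0.0048, limma adjusted p = 0.440). MDM2 has 13 features, of which 10 were under 0 and 3 above, from -0.90 to 0.23. Of the 8 measurable ones, 6 were under 0. Every MDM2 feature except the one used overlapped between the groups. In a comparison added after the data were seen, the median over the 13 features was -0.26 with all arrays and ran from -0.56 without the first shNon array to -0.07 without the third. Without the third shNon array, 7 features were under 0 and 6 above.

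PPM1D encodes WIP1, the phosphatase that switches off p53 and its kinases. It had 1232, 1150 and 1050 in shASPP2, against 1358, 1269 and 1863 in shNon, a log2 fold change of -0.37 (SE 0.206, limma adjusted p = 0.542). Without the third shNon array, the highest, the value was -0.20. Its other feature had 0.07 with overlap, so the gene's features did not share a direction. CCNG1, which recruits a phosphatase to MDM2, averaged 1227 ± 65.4 in shASPP2 and 1396 ± 289 in shNon (SD, n = 3 each), with overlap. Its log2 fold change was -0.17, and -0.21 and -0.50 on the others, the last of them dim. Without the third shNon array the feature used had -0.01.

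**Figure D3:**
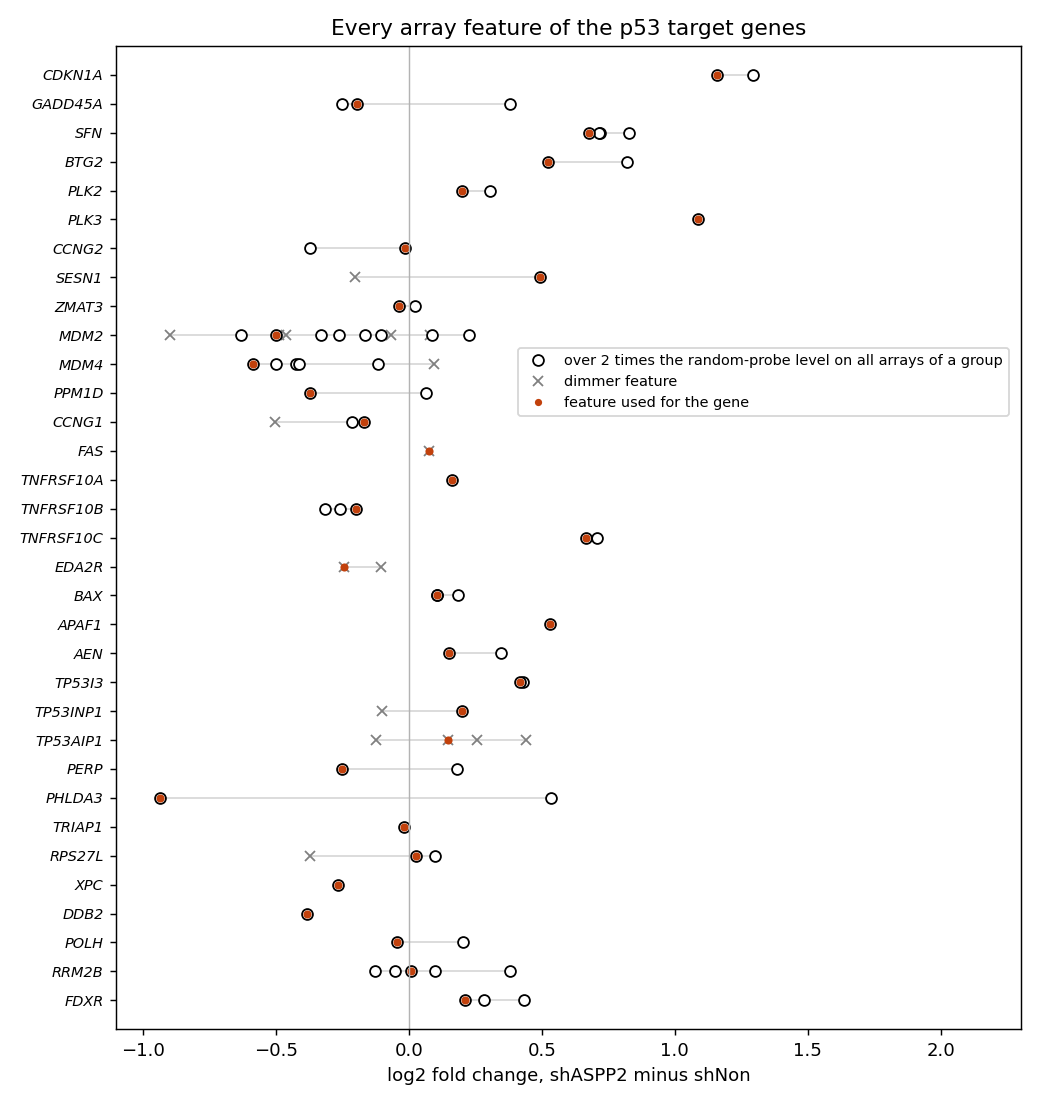
Log2 fold change, shASPP2 minus shNon, of each of the 87 features of the 33 p53 target genes. Open circles are features over 2 times the random-probe level on all arrays of a group, crosses are dimmer features, and the orange dot is the feature used for the gene. SFN and BAX features lie close together, while those of PHLDA3 lie at -0.94 and 0.54.

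The death receptors showed no member without overlap. FAS, the receptor of FAS ligand, was near background at 38.0, 41.4 and 33.3 in shASPP2 and 21.6, 46.2 and 44.6 in shNon, so its log2 fold change of 0.08 compares values near background. In a single window of the gene, a decamer lies before the start of that window's transcript, and its other windows hold none. EDA2R, the ectodysplasin A2 receptor, was near background as well (-0.24 and, on its other feature, -0.10). TNFRSF10A and TNFRSF10B, the TRAIL receptors that carry a death domain, had 0.16 and -0.20, with intervals of -0.35 to 0.68 and -0.60 to 0.21. The 3 TNFRSF10B features all lay under 0, from -0.31 to -0.20.

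TNFRSF10C, a TRAIL decoy receptor that lacks a death domain, had 451, 344 and 535 in shASPP2, against 325, 484 and 132 in shNon. Its log2 fold change was 0.67, with an interval from -0.43 to 1.76 (SE 0.465, limma adjusted p = 0.621). The third shNon array was low on both features (72.4 on the other), and leaving it out moved the value to 0.14.

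Of the 8 genes of apoptosis inside the cell, APAF1 was higher and PHLDA3 lower in shASPP2 without overlap. APAF1, the scaffold of the apoptosome that activates caspase-9, had 315, 352 and 267 in shASPP2, against 251, 202 and 192 in shNon, with a mean of 311 ± 42.6 in shASPP2 and 215 ± 31.7 in shNon (SD, n = 3 each). The log2 fold change was 0.53 (SE 0.197, 95% interval 0.07 to 1.00, limma adjusted p = 0.383), from its only feature. TP53I3, a quinone oxidoreductase of the oxidative branch of p53 apoptosis, had 428, 534 and 388 in shASPP2 and 390, 286 and 332 in shNon. Its groups overlapped by a narrow margin (log2 fold change 0.42, limma adjusted p = 0.498), and its other feature had 0.43 without overlap.

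BAX, the pore-forming protein of the mitochondrial outer membrane and the textbook target of ASPP2 with p53, had 6119, 5700 and 6830 in shASPP2, against 5496, 7133 and 4881 in shNon. Its 3 features had log2 fold changes of 0.11 to 0.18, and the groups overlapped on each of them. The interval of the feature used, -0.37 to 0.58, stayed inside 1.5-fold. AEN, a nuclease of apoptotic DNA breakdown, had 0.15 and 0.35. TP53INP1, a stress protein that promotes p53 phosphorylation, had 0.20, and -0.10 on a dim feature. PERP, a membrane protein of desmosomes, had -0.25 and 0.18. TP53AIP1, a mitochondrial protein, was near background on the feature used (0.15), and its other features, also dim, had -0.12 to 0.44.

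PHLDA3, which blocks AKT at the membrane, had the most negative value among the members. It had 62.0, 51.1 and 47.5 in shASPP2, against 135, 82.6 and 94.1 in shNon, and the groups did not overlap. The log2 fold change was -0.94 (SE 0.238, 95% interval -1.495 to -0.37, limma adjusted p = 0.247). Only 1 shASPP2 array was over 2 times the random-probe level, and the other feature had the opposite sign at 0.54, so the gene has no single direction on these arrays.

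The survival, repair and mitochondrial genes had log2 fold changes from -0.38 to 0.21 on the features used. TRIAP1, which restrains apoptosis after p53 is activated, and RPS27L, grouped with it here, had -0.02 and 0.03. The other features of RPS27L had 0.10 and, on a dim feature, -0.37. XPC, the damage sensor of nucleotide excision repair, had 1900, 1965 and 1873 in shASPP2, against 2407, 1993 and 2536 in shNon. It did not overlap, but the nearest arrays were 1965 and 1993 (log2 fold change -0.27, SE 0.173, limma adjusted p = 0.60). DDB2, which finds ultraviolet damage with DDB1 and carries the decamer pair, had 249, 354 and 246 in shASPP2 and 313, 347 and 443 in shNon, with overlap. Its log2 fold change was -0.38 (95% interval -0.92 to 0.16, limma adjusted p = 0.569), and -0.24 without the third shNon array. POLH, the polymerase that reads past ultraviolet lesions, had -0.04, and 0.20 on its other feature. RRM2B, the p53-inducible subunit of ribonucleotide reductase, had 0.01, and its 5 features ran from -0.13 to 0.38. FDXR, a mitochondrial reductase, had 0.21 to 0.43 on its 3 features, and the feature used averaged 414 ± 76.0 in shASPP2 and 354 ± 16.4 in shNon (SD, n = 3 each).

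Over the 22 members with at least 2 measurable features, the measurable features shared a sign in 14. Of the 87 features, 14 were under an unadjusted p of 0.05 in limma, beside 11.4% of all features on the arrays. SFN, MDM4 and CDKN1A each gave several of these 14, and features of a gene are not further replicates. Adjusted over all features, 0 of the 87 passed, beside 0.138% of all features. Across the members, the median SD of the log2 level was 0.20 in shASPP2 and 0.28 in shNon.

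**Figure D4:**
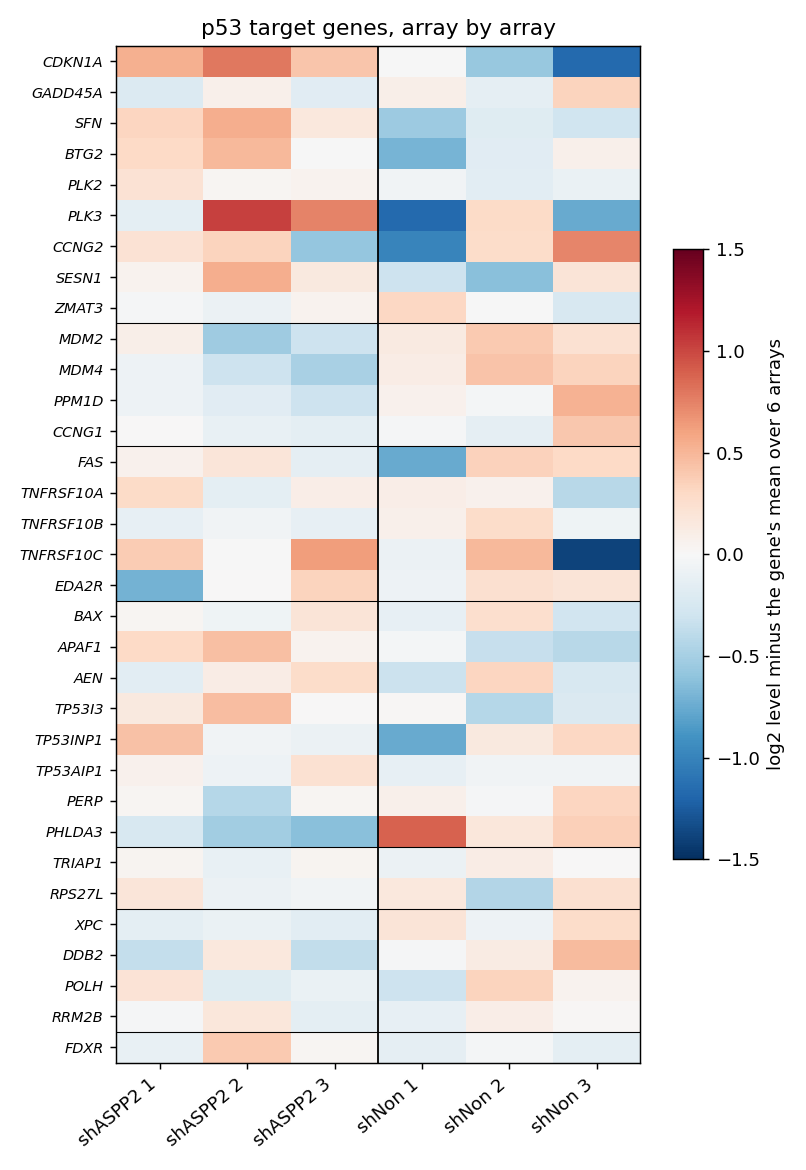
Log2 level of each p53 target gene on each array, minus the gene's mean over the 6 arrays, with roles separated by lines. The shASPP2 arrays stand left of the shNon arrays. The cells of CDKN1A and TNFRSF10C in the third shNon array and of PLK3 in the first are dark blue. The PHLDA3 cell in the first shNon array is red. As the mean is over both groups, such a cell also holds any difference between them.

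A list of 64 other p53 pathway genes, with regulators, further targets and apoptosome partners, was read beside the members. Its median was 0.02, and 22 genes (34.4%) did not overlap, 11 in each direction, beside 18.8% of all genes, 9.30% higher and 9.52% lower. IGFBP3, a p53 target that binds insulin-like growth factors, was the only gene of this list that passed. It fell to 1369, 1672 and 1372 in shASPP2, against 4298, 4404 and 4141 in shNon, with a log2 fold change of -1.55 (SE 0.170, limma adjusted p = 0.0379), and -1.43 on its other feature. It no longer passed when any array was left out (limma adjusted p = 0.107 to 0.331). TP53I11, a p53-induced membrane protein, had -0.78 (limma adjusted p = 0.223), and KITLG, the ligand of the receptor KIT, had 0.80 (limma adjusted p = 0.241), both without overlap on the feature used. The other feature of TP53I11 had -0.58 without overlap. The other 3 KITLG features had 0.34 to 0.57, and 2 of these overlapped.

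The genes on the p21 side of the cell cycle were read as well, 38 in all, namely cyclins, kinases and inhibitors that p21 works with and genes that p53 lowers through p21 and the DREAM repressor. None passed in limma, 2 (5.26%) were under an unadjusted p of 0.05, beside 11.5% of all genes, and the median was -0.05. The groups did not overlap for 9 (23.7%), beside 18.8% of all genes. Of the 38 genes, 36 were measurable, against 57.0% of all genes. CDKN2C, an inhibitor of the cyclin D kinases, had -0.61 (limma adjusted p = 0.316), from 354, 361 and 399 in shASPP2 against 584, 477 and 643 in shNon. Its other features had -0.12 and -0.57 and overlapped. CDC20, an activator of the anaphase-promoting complex, had 0.52, E2F1, a transcription factor of S phase entry, had 0.47, and CCND3, a D-type cyclin, had 0.36. CDC20 and E2F1 overlapped between the groups, and CCND3 did not. The other features of E2F1 and CCND3 had 0.19 and 0.38, both with overlap. The 23 genes lowered through p21 and DREAM had a median of -0.07, with 9 above 0 and 14 below.

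**Figure D5:**
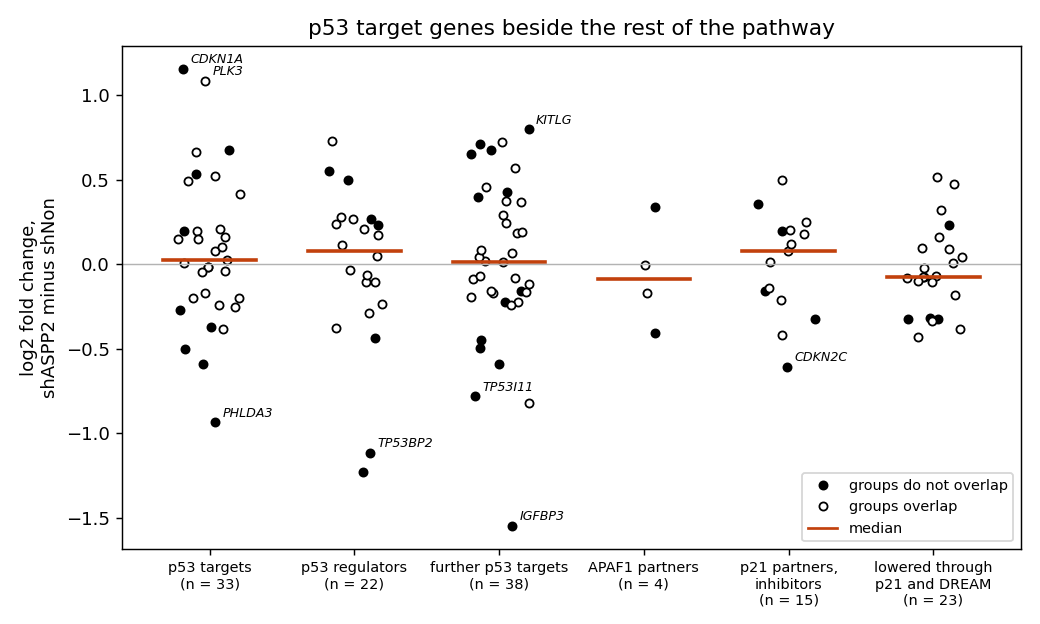
Log2 fold change, shASPP2 minus shNon, of the 33 p53 target genes beside the other lists, 1 point per gene, with the median as a line. Filled points are genes whose groups do not overlap. All 6 medians lie within 0.1 of 0, and IGFBP3 at -1.55 is the lowest point.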

How the data were processed

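HCC-LM3 cells were read on 6 single-colour arrays, 3 shASPP2 and 3 shNon. The deposited values are intensity values per feature, which RMA produced according to the submitters' processing notes. Its version and settings were not given in the sources used here. Depth does not apply to arrays, and 3 arrays per group limit the precision. Coordinates of features are hg18, per the annotation column of the deposited files, and symbols were updated by gene ID through a RefSeq table of GRCh38.p14. The deposited intensity values were taken as log2 and fitted with limma 3.58.1 in R 4.3.3, without further normalization, over 23593 genes (the feature with the highest mean log2 level for each), with Benjamini-Hochberg adjustment and a threshold of 0.05. The fit was tested on simulated data. All members are named. Of the other lists, TP53BP2, genes past the threshold and the 4 smallest p are named, and 1 further gene of the naming rule is not reported here. The members and lists were chosen with earlier results of these data known. Alternatives were another centring, cyclic loess, filters on dim features, a variance trend, array weights, the mean of features, all features, the replicate block and each array left out. Same-numbered arrays of the groups did not deviate together (r = 0.0561, -0.0756 and -0.126). The labels state no pairing, and low correlations cannot exclude one.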

Additional observations from a re-analysis of the deposited data

How the results depend on the processing

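The count of genes past the threshold was 24 and became 130 with features over 2 times the random-probe level, 247 with features over the median level, 506 with a variance trend and robust variance, and 40 with the mean of all features of a gene. It was 0 to 6 with single arrays left out, where fewer samples enter. Filters test fewer genes, and for the other changes the cause was not tested. The count of p53 targets was 0 under all alternatives except the trend (2). The count of other p53 pathway genes was 1, against 4 with the trend and 0 whenever an array was left out. With the replicate number as a block, 0 genes and 0 other pathway genes passed (2208 genes at an unadjusted p under 0.05), although same-numbered arrays did not deviate together and the labels state no pairing.

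Of the 33 members, 22 kept their sign under every alternative in which they were tested (BTG2, PHLDA3 and TP53AIP1 drop out of level filters) and 11 with small values did not, the cause of which was not tested. With single arrays left out, the log2 fold changes of these 11 ran from -0.51 (without the first shNon array) to 0.35 (without the third) for CCNG2, -0.17 to 0.11 for ZMAT3, -0.28 to 0.27 for FAS and -0.0031 to 0.28 for TNFRSF10A. They ran from -0.47 to 0.050 for EDA2R, -0.014 to 0.26 for BAX, -0.13 to 0.41 for TP53INP1 and -0.065 to 0.033 for TRIAP1. They ran from -0.18 to 0.15 for RPS27L, -0.21 to 0.11 for POLH and -0.078 to 0.084 for RRM2B. Median centring gave RPS27L -0.0068 and RRM2B -0.027, cyclic loess gave RRM2B -0.0038, array weights gave RRM2B -0.019, and the mean of features gave RPS27L -0.082 and POLH 0.080. Signal near the random-probe level limits FAS, EDA2R, TP53AIP1 and the dim features.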
